A study of Homo sapiens with 6 samples.

Results

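The genes described here are HSF1, the transcription factor that controls the heat shock response, and 9 chaperone and co-chaperone genes of the cytosol: HSPA1A, HSPA1B, HSPA8, HSP90AA1, HSP90AB1, HSPB1, HSPH1, DNAJB1 and BAG3. These 10 genes were taken from a list of symbols, with no threshold on their values, and all 10 were found by Ensembl identifier among the 28563 genes of the table. RNA was sequenced from cells labelled HepG2, an established cell line from a human liver cancer. Of the libraries, 3 came from dishes given polydatin (PD), a plant compound dissolved in DMSO, and 3 from dishes given DMSO alone. The labels give 336 µM of PD for 24 h, while the methods of the paper give a lower dose. Both groups carried the same vehicle and came from one line at 1 dose and 1 time point, and RNA but no protein was measured here.

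Heat shock proteins are chaperones that bind unfolded proteins and help them to fold, to stay soluble or to reach degradation. In resting cells HSF1 is held inactive by chaperones, and when unfolded proteins occupy these chaperones, HSF1 forms trimers, binds heat shock elements in promoters and raises transcription of its targets. HSP70 works in a cycle with a J-domain protein that delivers the client and a nucleotide exchange factor that releases it, and clients such as kinases and steroid receptors pass from HSP70 to HSP90. Some members (HSPA8 and HSP90AB1) are known as constitutive forms. Others (HSPA1A, HSPA1B, HSP90AA1, DNAJB1, HSPB1, HSPH1 and BAG3) are known as stress-inducible forms. Tumor cells often hold both kinds at high levels.

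Because the comparisons that follow turn on inducible and constitutive forms, the promoter sequences that bear heat shock elements are shown first. RefSeq promoter windows of GRCh38.p14, which run from 250 bases before to 50 bases after a transcription start, were found for 9 of the 10 genes. HSPA1A and HSPA1B lie next to each other on chromosome 6, and 235 of the 251 aligned positions in the 250 bases before their starts were identical (93.6%). Both stretches are printed whole to show how close the copies are, on the plus strand at chr6:31815293-31815542 and chr6:31827488-31827737, with the element of 2 units in capitals:
HSPA1A: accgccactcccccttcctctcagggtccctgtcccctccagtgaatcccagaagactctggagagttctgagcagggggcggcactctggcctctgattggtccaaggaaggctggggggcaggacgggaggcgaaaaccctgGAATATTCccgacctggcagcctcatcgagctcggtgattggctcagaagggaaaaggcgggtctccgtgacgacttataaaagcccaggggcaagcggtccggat
HSPA1B: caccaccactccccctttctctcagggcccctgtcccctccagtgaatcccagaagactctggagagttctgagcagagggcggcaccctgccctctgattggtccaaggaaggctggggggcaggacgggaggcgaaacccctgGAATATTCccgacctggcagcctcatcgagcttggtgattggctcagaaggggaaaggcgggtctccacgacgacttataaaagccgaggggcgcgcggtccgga

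For the other genes with an element before a start, short stretches around the elements are given 5′ to 3′ on the strand of the gene, and capitals mark each match. The coordinates are those of the printed stretches. HSPA8 has an element of 3 units within chr11:123062346-123062374 and another within chr11:123062171-123062199 (minus strand). HSP90AA1 has one within chr14:102087095-102087142 (minus strand), beside an element of 2 units, and HSP90AB1 has 2 elements of 3 units within chr6:44247768-44247853 (plus strand). Elements of 2 units lie within chr19:14518427-14518484 in DNAJB1 (minus strand) and within chr7:76302481-76302508 in HSPB1 (plus strand):
HSPA8, distal: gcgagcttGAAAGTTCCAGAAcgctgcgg
HSPA8, proximal: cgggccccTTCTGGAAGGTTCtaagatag
HSP90AA1: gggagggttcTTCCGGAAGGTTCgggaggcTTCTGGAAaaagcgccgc
HSP90AB1: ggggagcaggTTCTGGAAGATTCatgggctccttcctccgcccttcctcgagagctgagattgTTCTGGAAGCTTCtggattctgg
DNAJB1: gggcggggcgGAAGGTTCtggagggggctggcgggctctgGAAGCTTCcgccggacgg
HSPB1: cttaacgagaGAAGGTTCcagatgaggg

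The motif of 3 units was searched as GAANNTTCNNGAA and as TTCNNGAANNTTC, each being the other on the opposite strand, and was found in 3 of the 9 genes (HSPA8, HSP90AA1 and HSP90AB1) and in 0.49% of all 35116 promoter windows. The motif of 2 units, GAANNTTC or TTCNNGAA, which is contained in the longer one and reads the same on both strands, was found in 7 of the 9 genes and in 13.5% of all windows. The TATA box, searched as TATAAA on both strands, was found in HSPA1A and HSPA1B and in 11.5% of all windows. A CCAAT box on either strand was found in 5 of the 9 genes and in 34.6% of all windows. The windows of BAG3 and HSPH1 held none of these letters. Some genes have several starts, so that the 9 genes have 14 windows, and a share of all windows compares with a count of windows. The motif of 3 units was in 3 of these 14 windows, that of 2 units in 8, the TATA box in 2 and the CCAAT box in 7. A match is a description of letters, since no binding was measured.

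**Figure D1:**
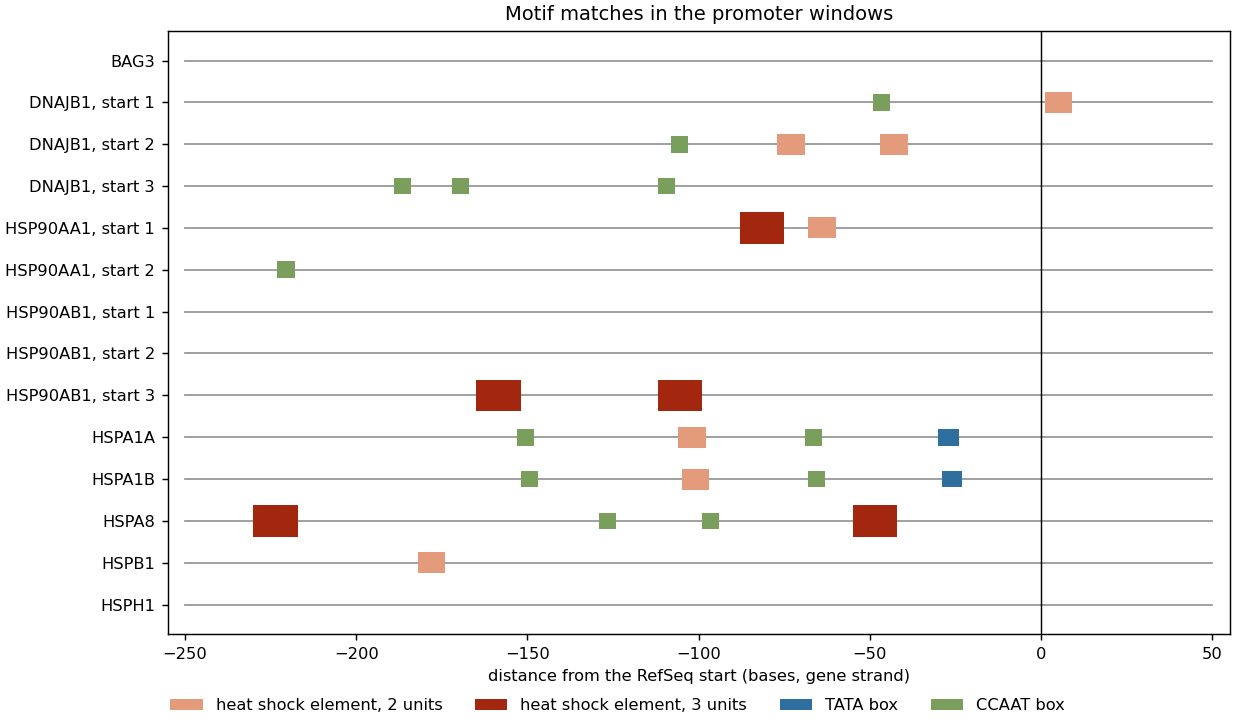
Positions of motif matches in the RefSeq promoter windows, 1 line per window, against the distance from the start in bases on the strand of the gene, with starts of a gene numbered by genome position. The dark boxes of 3 units appear in HSPA8, HSP90AA1 and HSP90AB1, the pattern of HSPA1A and HSPA1B is nearly the same, and the windows of BAG3, of HSPH1 and of HSP90AB1 starts 1 and 2 are empty.

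A DMSO library held from 16763318 to 17274927 fragments, a PD library from 16308476 to 18071632, and a member between 388 and 19835 of them. Levels are FPKM, the fragments on a gene scaled by its length and by the total of the library, so that levels can be compared between genes. Of 12 hepatocyte markers 6 had values, and only CPS1 and RBP4 reached 1 FPKM, while HNF4A, APOA1, TF and SERPINA1 stayed at or below 0.172 FPKM in all 6 libraries. TF and SERPINA1 were listed at 0 in every DMSO library. ALB and AFP were not analysed here. No gene of the table was at 0 in all 6 libraries, so a gene without fragments may be left out of it. Whether this holds for the markers without values was not tested. The summed level of the 6 markers was 222 to 229 FPKM in DMSO and 107 to 113 FPKM in PD, nearly all of it CPS1. For 8 markers of other cell types (VIM, KRT8, KRT18, CDH2, EPCAM, COL1A1, ACTA2 and PECAM1), the sum was 122 to 128 FPKM in DMSO and 151 to 158 FPKM in PD. Most of it came from the keratins KRT8 (mean 50.1 FPKM in DMSO and 68.9 in PD) and KRT18 (46.5 and 47.7), which liver cells express too, so that the sum is no measure of other cell types, and VIM went from 20.7 to 29.6 FPKM. Mitochondrially encoded mRNAs took 10.5 to 10.6% of the summed FPKM in DMSO and 12 to 12.4% in PD. The part of these differences in the results was not tested. The name HepG2 is used as the labels give it, although these 4 liver markers were near 0.

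All 10 genes had a mean of at least 0.5 FPKM and were tested with limma on log2(FPKM + 1) together with all 14400 genes that passed this filter, and p-values were adjusted over these 14400. In PD 8 members were higher, 1 was lower and 1 was not called, a call being an adjusted p up to 0.05. Among all tested genes 58.1% were called, 31.9% higher and 26.2% lower. A change of at least 2-fold was reached by 2 members, HSPA1A and HSPA1B, both higher, against 2.04% of all tested genes higher and 1.57% lower by this much. The groups did not overlap in 9 members, 8 of them higher, and over all tested genes this was so in 65.4%, with 35.6% higher and 29.9% lower. The median log2 fold change was 0.49 over the 10 members and 0.01 over all tested genes. The exact permutation test (two-sided), which cannot go below 0.10 with 3 against 3, gave p = 0.10 for these 9 members and p = 0.30 for HSPH1.

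**Figure D2:**
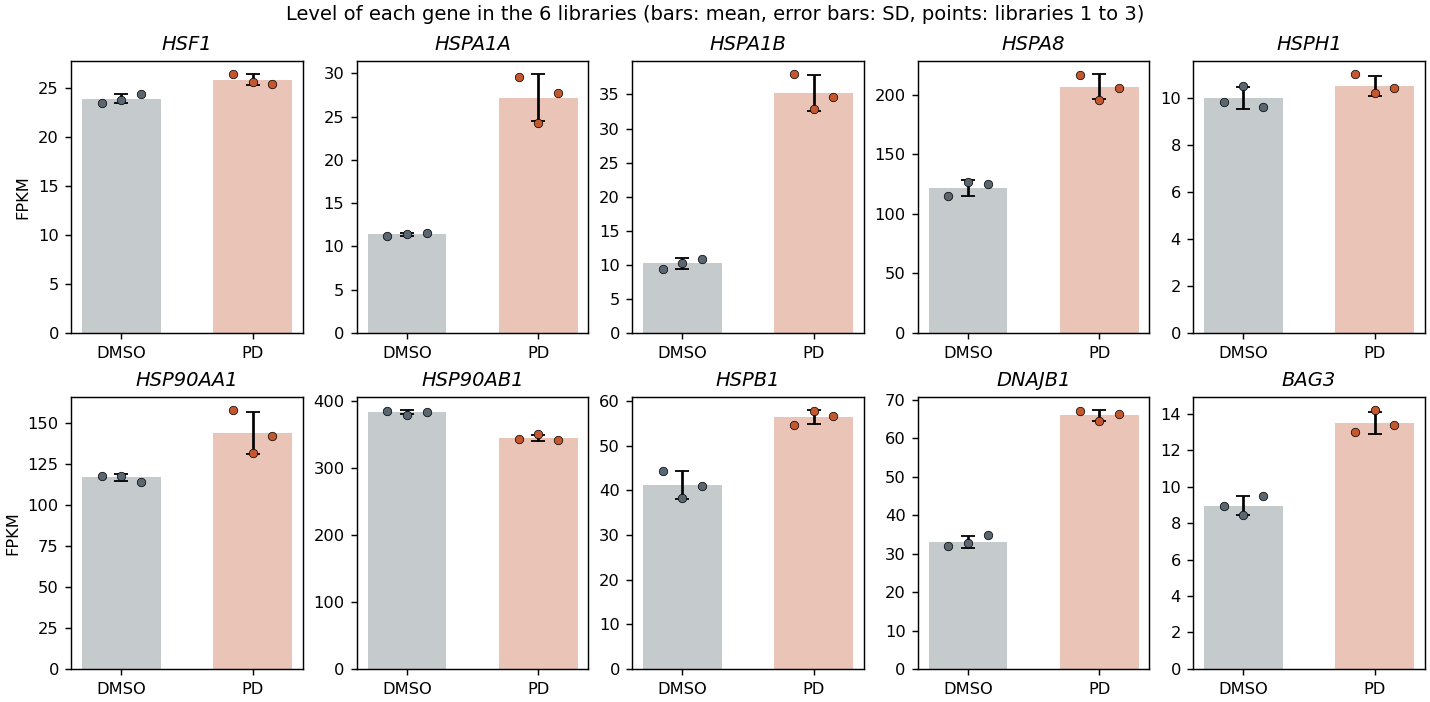
FPKM of the 10 genes in the 3 DMSO and 3 PD libraries, each panel with its own axis from 0, bars for the mean, error bars for the SD and points for the libraries. HSPA1A, HSPA1B, DNAJB1 and HSPA8 show the widest gaps between the groups, HSP90AB1 is the gene that is lower in PD, and the groups of HSPH1 overlap.

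HSF1 itself showed a small difference. HSF1 (ENSG00000185122, chromosome 8, 144291591 to 144314720) had 23.4, 23.8 and 24.4 FPKM in DMSO replicates 1, 2 and 3, and 26.4, 25.6 and 25.4 FPKM in PD. The PD libraries were all above the DMSO libraries, though not by much. The means were 23.9 ± 0.473 and 25.8 ± 0.552 FPKM (SD, n = 3 each), and the log2 fold change of 0.11 had a 95% interval of 0.03 to 0.19 (limma, adjusted p = 0.029). The call held in 5 of 14 alternative settings. It was lost with median-of-ratios scaling (log2 fold change 0.07, adjusted p = 0.12), with upper-quartile scaling (0.03, adjusted p = 0.57) with the replicate number as a block (0.11, adjusted p = 0.065) and with a constant prior variance (0.11, adjusted p = 0.064). It was also lost without DMSO replicate 1 (adjusted p = 0.085), DMSO replicate 2 (0.071), PD replicate 1 (0.086), PD replicate 2 (0.064) or PD replicate 3 (0.051). Exons of HSF1 share 137 bases with those of DGAT1 on the opposite strand, whose level went from 6.03 ± 0.799 to 9.87 ± 0.111 FPKM (SD, n = 3 each). Whether the counting used strand is not stated, so fragments on the shared bases cannot be assigned to one of the pair with certainty.

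The stress-inducible HSP70 genes rose most. HSPA1B (ENSG00000204388, chromosome 6, 31827738 to 31830254) had 9.37, 10.3 and 10.9 FPKM in DMSO and 38.0, 32.8 and 34.7 FPKM in PD. All PD libraries were far above all DMSO libraries. The means were 10.2 ± 0.774 and 35.2 ± 2.61 FPKM (SD, n = 3 each), which is 3.45-fold higher in PD, and the log2 fold change was 1.69 (SE 0.07, adjusted p = 3.7e-06, limma). By this change HSPA1B ranked 12 among the rises of the 14400 tested genes. Its exons share 920 bases with a long noncoding RNA on the same strand, for which no value was analysed here.
HSPA1A (ENSG00000204389, chromosome 6, 31815543 to 31817946), which encodes a nearly identical protein, had 11.2, 11.4 and 11.6 FPKM in DMSO and 29.6, 24.3 and 27.7 FPKM in PD. The gap between the groups was again wide, and PD replicate 1 was the highest in both genes. The means were 11.4 ± 0.196 and 27.2 ± 2.72 FPKM (SD, n = 3 each), a 2.39-fold difference (log2 fold change 1.18, SE 0.07, adjusted p = 1.3e-05, limma).

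Reads from these copies are hard to place, since of the 2255 windows of 150 bases within HSPA1A exons 1566 (69.4%) occur also in HSPA1B. Windows found once in the genome made up 30.6% of HSPA1A and 33.9% of HSPA1B, against 99.1% of HSPA8 and 100% of the other 7 genes. Only exact matches of windows within exons were searched, so sequence joined by splicing was not covered. HSP90AB1, for example, had 950 windows for 2980 exon bases. These shares therefore do not show that all reads of the other genes can be placed. How reads with several positions were counted is not stated, so the split between HSPA1A and HSPA1B is uncertain, and a sum over both depends less on it, though reads dropped for having several positions would be missing from both. The sum was 20.6, 21.7 and 22.5 FPKM in DMSO and 67.6, 57.1 and 62.4 FPKM in PD, which is 2.89-fold higher in PD. The ratio of HSPA1B to HSPA1A, chosen after the values were seen, was 0.837, 0.91 and 0.941 in DMSO and 1.28, 1.35 and 1.25 in PD. The order of the pair therefore changed between the groups, with HSPA1A above HSPA1B in each DMSO library and below it in each PD library.

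HSPA8, the constitutive HSP70 of the cytosol that also serves in clathrin uncoating and chaperone-mediated autophagy, rose from a much higher level than HSPA1A. HSPA8 (ENSG00000109971, chromosome 11, 123057489 to 123063230) had 115, 127 and 125 FPKM in DMSO and 217, 196 and 206 FPKM in PD. All PD libraries lay above all DMSO libraries, and the increase of the mean in FPKM was the largest among the 10 members. The means were 122 ± 6.58 and 207 ± 10.5 FPKM (SD, n = 3 each), 1.69-fold higher in PD (log2 fold change 0.75, SE 0.05, adjusted p = 2.3e-05, limma). An antisense RNA and 2 small nucleolar RNAs overlap its exons in GENCODE, and they were not analysed here.

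Of the partners of HSP70, the J-domain protein and one exchange factor rose and the other exchange factor did not pass the test. DNAJB1 (HSP40; ENSG00000132002, chromosome 19, 14514769 to 14560391), the J-domain protein that stimulates the ATPase of HSP70, had 31.9, 32.7 and 34.8 FPKM in DMSO and 67.1, 64.5 and 66.3 FPKM in PD. Its level was 1.99-fold higher in PD, with means of 33.1 ± 1.51 and 66.0 ± 1.36 FPKM (SD, n = 3 each). The log2 fold change was 0.97 with a 95% interval of 0.88 to 1.07 (limma, adjusted p = 3.7e-06), so that 2-fold lies within the interval. Without DMSO replicate 3 it was 1.01, which made 3 members higher by 2-fold. In GENCODE, TECR on the opposite strand shares 525 exon bases with DNAJB1. The fragments and FPKM of DNAJB1 do not match its GENCODE exon length of 8188 bases. The overlap in the gene model used for counting is therefore not known. TECR rose from 8.97 ± 0.186 to 18.5 ± 1.07 FPKM (SD, n = 3 each), with a log2 fold change of 0.97. It equals that of DNAJB1 on the log2(FPKM + 1) scale, where the added 1 lowers the change of TECR, the lower gene, more. The part of shared fragments in either value was not tested.
BAG3 (ENSG00000151929, chromosome 10, 119651380 to 119677819), an exchange factor of HSP70 that links it to small heat shock proteins and selective autophagy, had 8.96, 8.43 and 9.49 FPKM in DMSO and 13.0, 14.2 and 13.4 FPKM in PD. The groups did not overlap, and BAG3 was 1.51-fold higher in PD (log2 fold change 0.55, SE 0.05, adjusted p = 0.00013, limma). HSPH1 (HSP110; ENSG00000120694, chromosome 13, 31134973 to 31162388), an exchange factor that is itself a distant relative of HSP70, had 9.81, 10.5 and 9.61 FPKM in DMSO and 11, 10.2 and 10.4 FPKM in PD. The groups overlapped, with DMSO replicate 2 above PD replicates 2 and 3. The log2 fold change of HSPH1 was 0.07 with a 95% interval of -0.04 to 0.19 (limma, adjusted p = 0.25). Its value had the opposite sign, -0.01, with upper-quartile scaling.

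The HSP90 pair differed in direction. HSP90AA1 (ENSG00000080824, chromosome 14, 102080742 to 102139699), the inducible HSP90 alpha, had 118, 118 and 114 FPKM in DMSO and 158, 132 and 142 FPKM in PD. The PD libraries were all higher, with replicate 1 at the top, and their SD was the largest of any member. The means were 117 ± 2.05 and 144 ± 12.9 FPKM (SD, n = 3 each), 1.24-fold higher in PD (log2 fold change 0.30, SE 0.06, adjusted p = 0.0041, limma). The log2 fold change was 0.23 without PD replicate 1 and 0.36 without PD replicate 2.
HSP90AB1 (ENSG00000096384, chromosome 6, 44246166 to 44253888), the constitutive HSP90 beta, was the most abundant member and ranked 49 in level among all 14400 tested genes. It had 385, 379 and 384 FPKM in DMSO and 343, 350 and 342 FPKM in PD. Every PD library was below every DMSO library. The means were 383 ± 3.17 and 345 ± 4.60 FPKM (SD, n = 3 each), and the log2 fold change was -0.15 (SE 0.02, adjusted p = 0.0012, limma). The sum of both HSP90 genes, 503, 497 and 498 FPKM in DMSO and 501, 482 and 484 FPKM in PD, overlapped between the groups. In GENCODE, exons of HSP90AA1 share 197 bases with WDR20 on the opposite strand, whose means were 2.72 ± 0.0799 and 2.53 ± 0.043 FPKM (SD, n = 3 each).

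HSPB1 (HSP27; ENSG00000106211, chromosome 7, 76302673 to 76304295), a small heat shock protein that holds unfolded proteins without using ATP and binds actin, rose as well. It had 44.4, 38.3 and 41.0 FPKM in DMSO and 54.7, 57.7 and 56.7 FPKM in PD. The groups did not overlap, and DMSO replicate 1 came nearest to the PD libraries. The means were 41.2 ± 3.09 and 56.4 ± 1.55 FPKM (SD, n = 3 each), 1.37-fold higher in PD (log2 fold change 0.44, SE 0.06, adjusted p = 0.00038, limma).

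**Figure D3:**
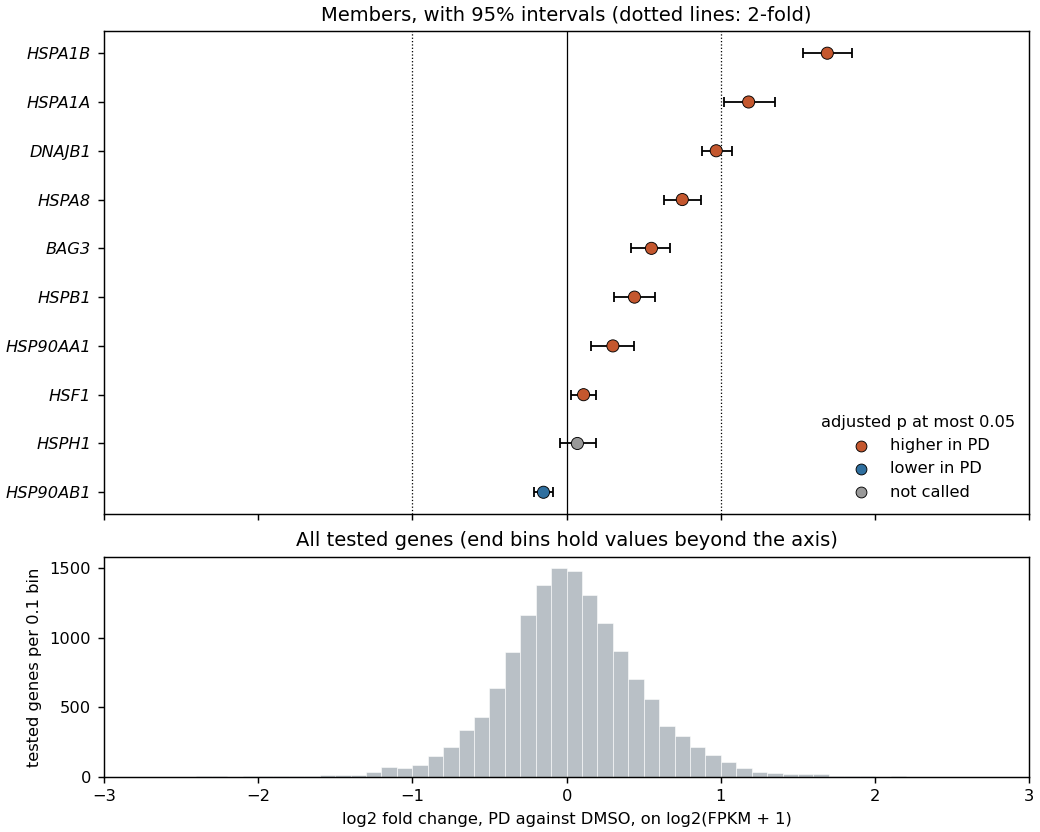
Log2 fold change of each member in PD against DMSO on the log2(FPKM + 1) scale with its 95% interval (limma, 3 libraries per group), above a histogram of all 14400 tested genes on the same axis. HSPA1B at 1.69 and HSPA1A at 1.18 lie beyond 2-fold, HSP90AB1 at -0.15 lies below 0, and HSPH1 at 0.07 has an interval that includes 0.

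Ordered by mean level in DMSO, the members ran from HSP90AB1 (383 FPKM) over HSPA8 (122), HSP90AA1 (117), HSPB1 (41.2), DNAJB1 (33.1), HSF1 (23.9), HSPA1A (11.4), HSPA1B (10.2) and HSPH1 (9.97) to BAG3 (8.96). HSPA8 and HSP90AA1, and also HSPA1B and HSPH1, overlapped in their DMSO libraries and so could not be ordered beyond the spread. In PD the order was HSP90AB1 (345), HSPA8 (207), HSP90AA1 (144), DNAJB1 (66.0), HSPB1 (56.4), HSPA1B (35.2), HSPA1A (27.2), HSF1 (25.8), BAG3 (13.5) and HSPH1 (10.5). HSF1 lay among the PD values of HSPA1A, and the other neighbours did not overlap. The places of HSPA1A and HSPA1B in both orders depend on how reads with several positions were counted. The 10 genes together held 757, 760 and 764 FPKM in DMSO and 958, 908 and 925 FPKM in PD, or 0.299% ± 0.00171 and 0.352% ± 0.0114 (SD, n = 3 each) of the summed FPKM of a library.

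Ratios between 2 members within a library do not depend on how libraries are scaled, and they were used to describe the balance of inducible and constitutive forms. The ratio of HSPA1A plus HSPA1B to HSPA8 was 0.179, 0.17 and 0.18 in DMSO and 0.311, 0.291 and 0.302 in PD. HSPA1A and HSPA1B together therefore gained on HSPA8 in FPKM, and HSPA8 had the higher FPKM in every library. Reads dropped from HSPA1A and HSPA1B for having several positions would make this ratio too low. The share of HSPA8 in the cytosolic HSP70 mRNA is therefore uncertain. The ratio of HSP90AA1 to HSP90AB1 was 0.305, 0.311 and 0.298 in DMSO and 0.461, 0.378 and 0.415 in PD, again with no overlap.
Among the partners, DNAJB1 gained a little on HSPA8, with ratios of 0.278, 0.257 and 0.279 in DMSO and 0.309, 0.328 and 0.321 in PD. The BAG3 to HSPA8 ratio overlapped between the groups (0.0662 to 0.0780 in DMSO and 0.0598 to 0.0722 in PD). HSPH1, though also known as stress-inducible, fell behind, with ratios to HSPA8 of 0.0854, 0.0824 and 0.0771 in DMSO and 0.0506, 0.0518 and 0.0506 in PD. The ratio of the 3 HSP70 genes to both HSP90 genes, chosen after the values were seen, went from 0.288 ± 0.0166 in DMSO to 0.550 ± 0.0226 in PD (SD, n = 3 each). It holds HSPA1A and HSPA1B, whose levels carry the same uncertainty.

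**Figure D4:**
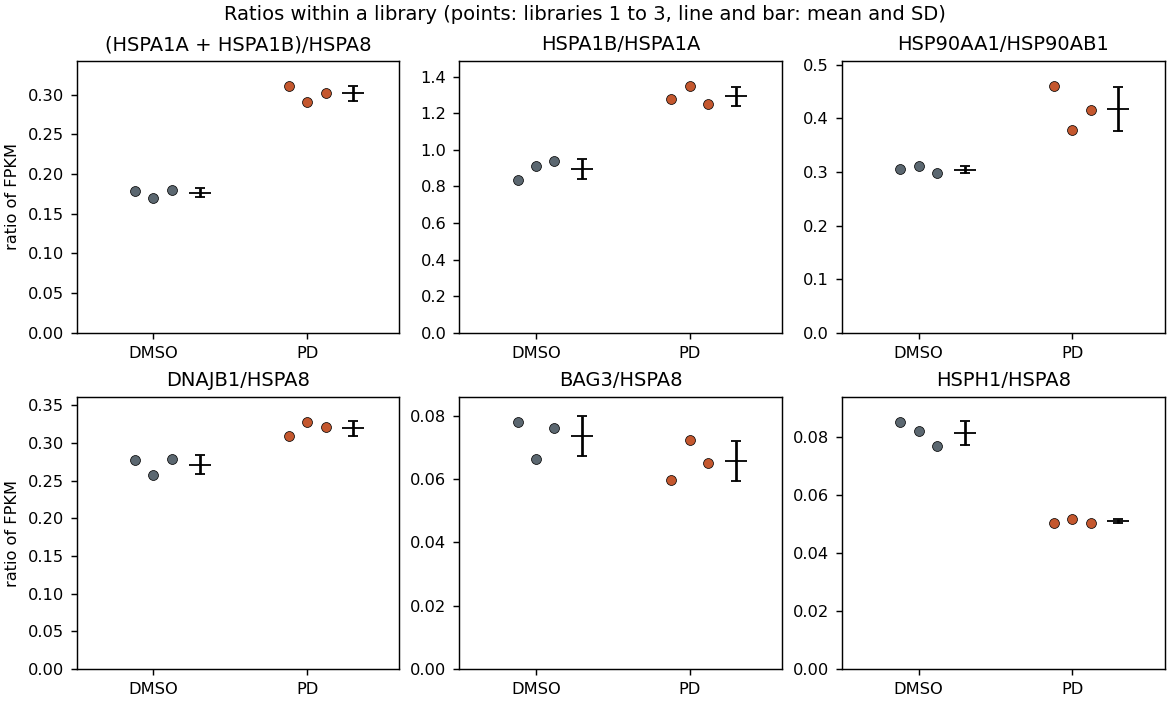
Ratios of FPKM between members within each library, with points for the 3 DMSO and 3 PD libraries and a line with a bar for the mean and SD, all axes from 0. The groups are apart in 5 of the 6 ratios and overlap in BAG3 to HSPA8, and HSPH1 to HSPA8 is the ratio that is lower in PD without overlap.

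The rest of the chaperone system was described with 10 lists of related genes, which hold 95 genes, 77 of them tested. Of these 77, 26 were higher, 29 were lower and 22 were not called, with a median log2 fold change of -0.01, beside 31.9% higher and 26.2% lower among all tested genes. The counts of the single lists are to be read against these shares. These lists, like the 10 members, were drawn up with earlier results of these data known. One list, drawn up as textbook heat shock response genes, held 19 genes, of which 15 are also in another list. Of the 16 tested, 8 were higher, 4 lower and 4 not called, with a median of 0.15. With limma voom 9 genes of this list were higher and 6 lower. The largest changes were those of SERPINH1, the collagen chaperone HSP47 (25.0 ± 2.18 to 37.4 ± 0.171 FPKM, SD, n = 3 each, log2 fold change 0.57), HSPD1, the mitochondrial chaperonin HSP60 (-0.44), and CHORDC1, a co-chaperone of HSP90 (-0.43), and the largest adjusted p of these was 0.0024 (limma).
HSPA6, an HSP70 gene known to be almost silent without severe stress, is named here after its values were seen. It had 0.0488, 0 and 0.0247 FPKM in DMSO and 0.0934, 0.241 and 0.0517 FPKM in PD, from 0 to 10 fragments a library, and so was below the minimum for the test. HSPA1L, a testis HSP70 gene also chosen after its values were seen, was below the minimum too, with 0.614 to 0.827 FPKM in DMSO and 0.239 to 0.362 FPKM in PD. CRYAB of the same list was below it as well, with 0.523 ± 0.0752 FPKM in DMSO and 0.253 ± 0.0299 FPKM in PD (SD, n = 3 each).

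In the HSF family, HSF2, which forms mixed trimers with HSF1, fell from 6.48 ± 0.632 to 4.85 ± 0.127 FPKM (SD, n = 3 each, log2 fold change -0.35, adjusted p = 0.0037, limma). HSF4 rose (0.27, adjusted p = 0.013) and HSBP1L1 fell (-0.22, adjusted p = 0.022), and 2 of the 5 tested genes of this list were not called. The call of HSBP1L1 was lost without DMSO replicate 1 (-0.18, adjusted p = 0.073), DMSO replicate 3 (-0.19, 0.067) or PD replicate 3 (-0.18, 0.076), and also with no filter on low values (-0.22, 0.06). Of the other HSP70 and HSP110 genes 5 were tested. HSPA12A, a distant HSP70 relative, rose from 2.38 ± 0.204 to 5.90 ± 0.564 FPKM (SD, n = 3 each, log2 fold change 1.03), HSPA4, an HSP110-type exchange factor like HSPH1, fell (-0.30, adjusted p = 0.00039, limma), and 3 were not called. Of the 2 tested small heat shock genes, HSPB7, known from heart muscle, fell from 40.5 ± 1.54 to 19.6 ± 1.18 FPKM (SD, n = 3 each, log2 fold change -1.01), whereas HSPB8, the partner of BAG3, rose by 0.19 on this scale (adjusted p = 0.011, limma), a call lost with upper-quartile scaling (0.11, adjusted p = 0.11).

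Of 8 tested J-domain proteins other than DNAJB1, 2 were higher and 5 lower, with a median of -0.25. Only 3 were lower without DMSO replicate 1 or 2 or without PD replicate 2 or 3, and with no filter on low values 3 were higher and 3 lower. DNAJA4 (0.46) and DNAJA1 (0.34), both type A partners of HSP70, rose, and DNAJB6, which prevents aggregation of polyglutamine proteins, fell (-0.53). Of 18 tested co-chaperones of HSP90 and HSP70, 8 were higher, 4 lower and 6 not called, and with upper-quartile scaling 7 were higher and 7 lower. TOMM34, which binds HSP70 and HSP90 on the way to mitochondria, rose from 31.5 ± 1.05 to 53.8 ± 1.37 FPKM (SD, n = 3 each, log2 fold change 0.75), the myosin chaperone UNC45A rose by 0.61 and FKBP5, an immunophilin of steroid receptors, by 0.45 on this scale. In the list of the other BAG family genes and the exchange factor HSPBP1, 1 of 6 was higher and 3 were lower. BAG1, with 30.2, 28.8 and 31.0 FPKM in DMSO and 19.8, 18.3 and 17.9 FPKM in PD, fell (log2 fold change -0.66) and BAG5 fell by 0.40 on the log2 scale, while BAG4 rose by 0.25 (adjusted p = 0.019, limma), a call lost with upper-quartile scaling (0.18, adjusted p = 0.053) and without PD replicate 1 (0.21, 0.062). Without DMSO replicate 3, 2 genes of this list were called higher. BAG3 and BAG1 thus had opposite directions, and BAG3 remained below BAG1 in every library.

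The CCT chaperonin, which folds actin and tubulin, and prefoldin, which feeds it, showed no higher gene among 14 tested. All 8 CCT subunits and 3 of 6 prefoldin subunits were lower, led by CCT8 (128 ± 1.61 to 92.2 ± 4.14 FPKM, SD, n = 3 each, log2 fold change -0.47), CCT6A (-0.41) and VBP1 (-0.40), and the median of the list was -0.21. Without DMSO replicate 3, 2 genes of this list were called higher. Of 7 mitochondrial chaperones HSPD1 (-0.44) and HSPA9 (-0.21) were lower, TRAP1 (0.12), the mitochondrial HSP90, was higher, and 4 were not called. The call of TRAP1 was lost with upper-quartile scaling (0.03, adjusted p = 0.49), with median-of-ratios scaling (0.08, 0.073), with a constant prior variance (0.12, 0.055) and without DMSO replicate 2 (0.09, 0.06), PD replicate 2 (0.11, 0.057) or PD replicate 3 (0.11, 0.06). In the endoplasmic reticulum all 8 genes of the HSP70 and HSP90 system were higher, with a median of 0.71. Those with the largest change were SDF2L1 (24.8 ± 3.08 to 59.6 ± 5.01 FPKM, SD, n = 3 each, log2 fold change 1.24) and the J-domain protein DNAJB9 (1.08), followed by HSPA5 (BiP), the HSP70 of this compartment, which went from 170 ± 2.18 to 320 ± 6.66 FPKM (SD, n = 3 each, 0.91). HSPA5 was above HSPA8 in each library of both groups.

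**Figure D5:**
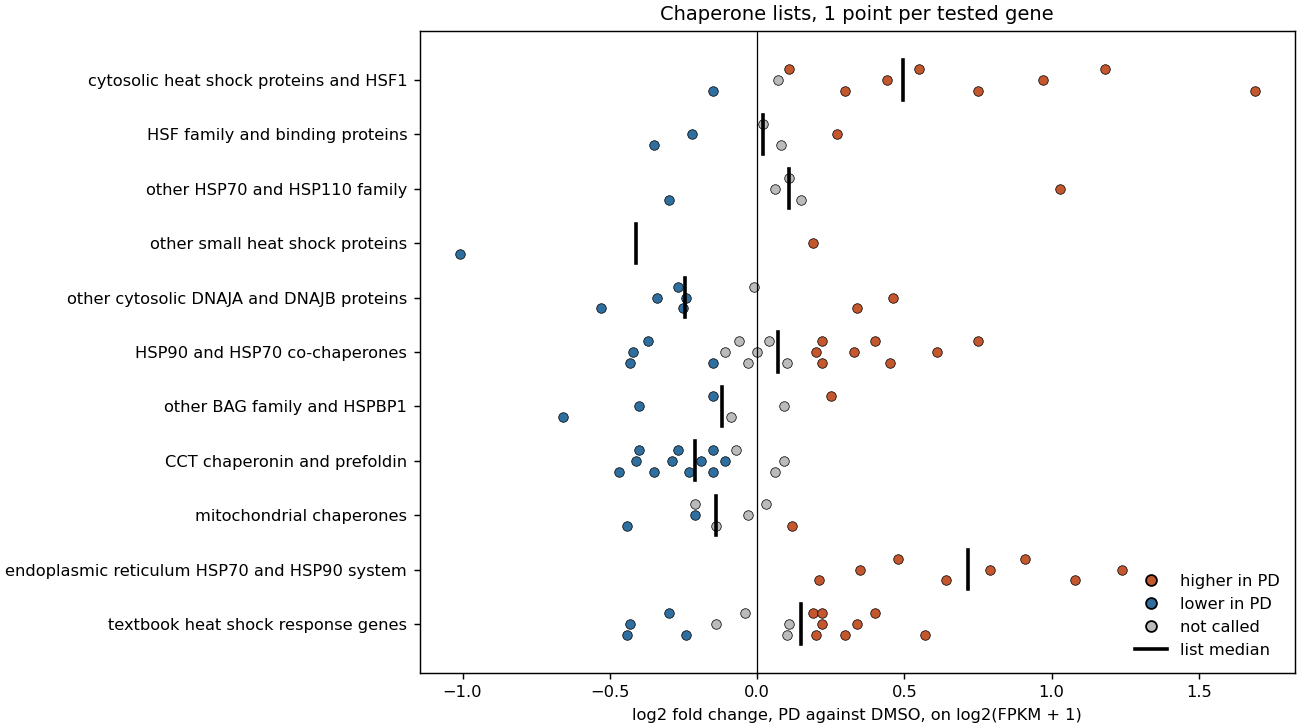
Log2 fold change in PD against DMSO on the log2(FPKM + 1) scale for every tested gene of the 10 members (top line) and of the 10 related lists, with colours for the call (adjusted p up to 0.05) and a black line for the median of each list. The members (median 0.49) and the endoplasmic reticulum genes (0.71) lie mainly to the right, and the CCT and prefoldin genes (-0.21) mainly to the left.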

How the data were processed

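Poly(A) RNA of the 6 libraries was sequenced as paired-end reads. The authors aligned them to hg38 with HISAT2, counted them per gene with HTSeq 0.6.0 and deposited FPKM in 1 table of 28563 genes; gene annotation and strand setting are not given in the sources used here. All value columns were assigned to samples by title. The members and lists were chosen with earlier results of these data known. A marker beyond those counted in the text is not reported here.

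All 14400 genes whose mean reached 0.5 FPKM were fitted on log2(FPKM + 1) with limma 3.58.1 in R 4.3.3, PD against DMSO without covariates and with an intensity-dependent prior, and adjusted by the Benjamini-Hochberg method. The pseudocount of 1 understates changes of low genes. Library totals and whole fragments were worked back from FPKM steps and GENCODE release 44 exon lengths (tolerance 0.001 fragments); for some genes the step may be off by a factor of 2. Single genes were tested by exact permutation in scipy 1.17.1. The fits were also run on simulated data with few changed genes and a fixed spread between libraries. That setting differs from these data, where most tested genes were called, so no conclusion is drawn from it. The libraries were separate dishes of one line, so p-values measure the spread between dishes. No library was a duplicate of another, with a chi-square per gene from 2.35 to 3.84 for pairs of one group and from 52.4 to 60.8 across groups. Of each related list, genes past 2-fold and then the largest called changes were named, up to 3. Alternatives were a pseudocount of 0.1, no filter, a 5 FPKM filter, a replicate block, 2 other scalings, a constant prior, limma voom (a minimum of 10 fragments in 3 libraries), and leaving out each library.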

Additional observations from a re-analysis of the deposited data

How the results depend on the processing

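Of the 10 members, HSPA1A, HSPA1B, HSPA8, HSP90AA1, HSP90AB1, HSPB1, DNAJB1 and BAG3 kept direction and call in all 14 alternative settings. HSPH1 was not called in any of them and had a log2 fold change of -0.01 with upper-quartile scaling. HSF1 was called in 5 of the 14, with adjusted p of 0.028 to 0.57 (limma). Leaving out 1 library at a time gave 7 to 8 members higher, 1 lower, 2 to 3 higher by 2-fold and none (0) lower by 2-fold, and among the related genes 25 to 29 higher and 24 to 30 lower. The log2 change of the ratio of HSPA1A plus HSPA1B to HSPA8 was 0.77 and ranged from 0.75 to 0.80 when a library was left out; with HSPA1A alone it was 0.50 and with HSPA1B alone 1.03, and the cause was not tested. The other ratios ranged from 0.38 to 0.52 for HSP90AA1 to HSP90AB1, from -0.72 to -0.65 for HSPH1 to HSPA8, from 0.20 to 0.26 for DNAJB1 to HSPA8 and from -0.24 to -0.10 for BAG3 to HSPA8. The replicate block gave 7 members higher and 1 lower. It removed the call of HSF1 (adjusted p = 0.065) and changed no other call of a member. The numbers were not treated as pairs, since deviations of same-numbered libraries correlated at -0.027 to 0.0898 and those of other pairs at -0.0835 to 0.0847. Across all tested genes, 4588 higher and 3780 lower genes became 3800 and 4673 with upper-quartile scaling. Genes under the filter, such as HSPA6, are limited by depth.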
